A study of Mus musculus with 6 samples.

Results

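The 10 genes described here encode limb and mesenchymal patterning transcription factors: the homeobox genes Prrx1, Prrx2, Pitx1, Shox2, Msx1 and Msx2 and the T-box genes Tbx4, Tbx5, Tbx15 and Tbx18. The rule took them by symbol and uses no measured value, but the set was proposed with earlier results of these data known. All 10 were found among the 20007 gene identifiers of the deposited count files. RNA had been sequenced on the BGISEQ-500 platform from 6 libraries of KM mice in 3 groups of 2. CiSCs were passaged embryonic fibroblasts, labelled 13.5 days post coitum, treated with small molecules, which the labels leave unnamed, to turn them towards Sertoli cells. MSCs were mouse Sertoli cells, the nurse cells of the seminiferous tubule, taken from testes at postnatal day 60 and plated. MEFs were fibroblasts from embryos labelled 13.5 days post coitum, for which the growth protocol also names an earlier day. The labels describe no group of passaged fibroblasts without compounds, so passage and compounds cannot be told apart in CiSCs. Age, tissue of origin and cell type differ together between MSCs and MEFs and cannot be told apart either.

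Limb buds grow out from lateral plate mesenchyme, and combinations of homeodomain and T-box proteins give that mesenchyme its position and fate. Tbx5 is the forelimb factor, and Pitx1 together with Tbx4 acts in the hindlimb. Prrx1 and Prrx2 are paired-related homeobox genes of limb and craniofacial mesenchyme, Shox2 is needed for the proximal limb skeleton, Tbx15 and Tbx18 are related T-box genes of trunk and limb mesenchyme, and Msx1 and Msx2 are homeodomain repressors that respond to BMP signals. Embryonic fibroblasts keep much of the positional expression of the mesenchyme they come from.

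The start-site regions of Prrx1 and Prrx2 and of Msx1 and Msx2 are shown because the levels below differ within these related pairs, and that of Shox2 because it stood near 0 in MSCs and was well above it in CiSCs and MEFs. The sequences are those of RefSeq on mouse build GRCm38.p6, each running 5′ to 3′ on the gene's strand from 250 bases before to 50 bases after the start, and 7 of the 10 members had one. This is not the build of the authors' alignment, mm9, and no coordinate was carried between them. Capitals mark the homeodomain core TAATTA and the GC box GGGCGG, each on either strand, so that the GC box also appears as CCGCCC. No marked site overlaps another.
Prrx1, chr1:163313601-163313900, minus strand: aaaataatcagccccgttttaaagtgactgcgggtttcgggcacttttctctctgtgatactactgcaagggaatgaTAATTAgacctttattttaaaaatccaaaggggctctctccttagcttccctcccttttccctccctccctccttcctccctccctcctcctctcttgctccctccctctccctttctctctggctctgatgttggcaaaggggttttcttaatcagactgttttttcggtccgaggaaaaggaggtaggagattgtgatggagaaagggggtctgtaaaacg
Prrx2, chr2:30845117-30845416, plus strand: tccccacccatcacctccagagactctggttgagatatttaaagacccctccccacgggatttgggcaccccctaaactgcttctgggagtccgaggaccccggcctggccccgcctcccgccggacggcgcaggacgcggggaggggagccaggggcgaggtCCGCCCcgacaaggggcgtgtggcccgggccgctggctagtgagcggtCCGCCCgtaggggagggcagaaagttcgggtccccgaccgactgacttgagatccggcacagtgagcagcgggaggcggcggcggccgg
Msx1, chr5:37824536-37824835, minus strand: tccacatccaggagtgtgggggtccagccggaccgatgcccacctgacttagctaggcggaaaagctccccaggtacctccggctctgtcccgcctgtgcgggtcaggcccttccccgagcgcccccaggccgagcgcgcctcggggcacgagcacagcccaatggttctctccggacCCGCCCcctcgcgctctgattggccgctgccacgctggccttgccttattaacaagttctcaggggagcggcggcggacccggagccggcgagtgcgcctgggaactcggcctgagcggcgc
Msx2, chr13:53472731-53473030, minus strand: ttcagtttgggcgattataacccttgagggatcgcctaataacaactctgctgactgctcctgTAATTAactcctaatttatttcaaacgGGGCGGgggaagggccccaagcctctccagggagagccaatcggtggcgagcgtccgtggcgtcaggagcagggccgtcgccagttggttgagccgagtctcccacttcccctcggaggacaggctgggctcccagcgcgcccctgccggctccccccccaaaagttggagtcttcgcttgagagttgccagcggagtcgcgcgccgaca
Shox2, chr3:66981722-66982021, minus strand: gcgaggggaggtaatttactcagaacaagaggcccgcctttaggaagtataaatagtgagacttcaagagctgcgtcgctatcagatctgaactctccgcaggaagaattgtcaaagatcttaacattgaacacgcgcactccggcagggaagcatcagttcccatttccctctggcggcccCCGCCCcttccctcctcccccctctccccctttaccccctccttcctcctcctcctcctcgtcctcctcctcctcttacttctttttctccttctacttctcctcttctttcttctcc

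The Prrx1 window held 6 CpG dinucleotides at a GC content of 47.7%, and the Prrx2 window held 28 at 70.3%. Both windows, and that of Tbx4, lie wholly inside their genes as annotated on the same build. The 5′ ends of these genes were at 163315145 for Prrx1, 30845064 for Prrx2 and 85886367 for Tbx4. Their values thus describe a start within the gene, and windows at the outer ends were not examined. The median of all 32851 promoter windows of this length was 7 CpG dinucleotides and 52.7% GC. TAATTA stood in the Prrx1 window at position -173 from the start and in the Msx2 window at position -187, and was present in 5.29% of all windows. GGGCGG occurred 2 times for Prrx2 and once each for Msx1, Msx2, Shox2 and Tbx4, against 35.7% of all windows holding it. The T-box half-site AGGTGTGA (1.28% of all windows) and the nuclear receptor half-site AGGTCA (16.3%) were in none of the 7 members' windows. The E-box CANNTG, which is not capitalised, stood in the Msx1, Msx2, Tbx4 and Tbx18 windows and in 72.3% of all windows. A match is a description of these letters, not a binding site.

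Libraries held 19294671 to 20418587 expected counts, so that 1 read was worth 0.0468 to 0.0543 CPM (CPM, counts scaled to library size). Replicates differed by more than sampling noise in every group, with a chi-square per degree of freedom of 10.5 in CiSCs, 8.61 in MSCs and 87.9 in MEFs. Nothing in the labels ties replicate libraries to separate cultures or animals, so p-values reflect only how far these libraries spread, which may be technical. Of 12 Sertoli cell markers none was at 0 in MSCs, Fshr was at 0 in CiSCs, and Dmrt1 and Fshr were at 0 in MEFs; their summed level was 4131 to 4861 CPM in CiSCs, 6198 to 9180 CPM in MSCs and 100.4 to 112 CPM in MEFs. Clu alone gave 4734 and 4020 CPM of this in the CiSC libraries. Of the 11 tested Sertoli cell markers, 3 rose and 8 did not pass in CiSCs against MEFs, and 10 were lower in CiSCs than in MSCs. All 10 fibroblast markers were detected in each group, at a summed 28523 to 28723 CPM in CiSCs, 40239 to 43061 CPM in MSCs and 22053 to 24124 CPM in MEFs. The collagens Col1a1, Col1a2 and Col3a1 made up most of these sums, at means of 13938, 10290 and 14224 CPM in MSCs. By the test 4 of the 10 rose and 2 fell in CiSCs against MEFs, and 3 rose and 4 fell in MSCs against MEFs, Thy1 among those that fell (4.22 CPM in MSCs, against 777 CPM in MEFs). All 12 leukocyte markers were detected in each group as well, at 34.1 to 49.8 CPM in CiSCs, 1310 to 1391 CPM in MSCs and 11704 to 18990 CPM in MEFs. The 8 Leydig cell markers summed to 11.2 to 12.3 CPM in CiSCs, 1554 to 1579 CPM in MSCs and 11.6 to 13.0 CPM in MEFs, with Hsd17b3 at 0 in every group. Cyp11a1, Star and Fdx1 made up most of the MSC sums, at means of 783, 425 and 190 CPM. Cyp17a1 and Lhcgr were near 0 in MSCs as well, at means of 0.0272 and 0.0809 CPM. The 8 peritubular myoid markers summed to 1699 to 1872 CPM in CiSCs, 4706 to 4966 CPM in MSCs and 3348 to 3742 CPM in MEFs. Acta2 and Tagln made up most of these sums, at means of 2318 and 1238 CPM in MSCs. By the test 3 of the 8 rose and 5 fell in CiSCs against MEFs. In MSCs against MEFs 4 rose and 4 did not pass, Acta2 and Tagln among the latter. The 8 endothelial markers summed to 107 to 114 CPM in CiSCs, 295 to 303 CPM in MSCs and 39.8 to 40.2 CPM in MEFs. Eng made up most of these sums, at means of 85.6, 200 and 23.4 CPM in the same order. By the test 3 of the 8 rose and 3 fell in CiSCs against MEFs, Cdh5 among those that fell (0.0472 against 0.614 CPM). The 5 epithelial markers in the files summed to 13.7 to 17.6 CPM in CiSCs, 14.1 to 16.2 CPM in MSCs and 7.58 to 9.76 CPM in MEFs. Of 4 tested, 1 rose and 1 fell in CiSCs against MEFs. Krt18 rose (12.9 against 1.26 CPM) and Cdh1 fell (0.0477 against 5.22 CPM). These were bulk samples, in which fewer cells of a type and less RNA per cell cannot be told apart, and the part that other cell types had in the results below was not tested.

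Prrx1 was the most abundant of the 10 genes in every library, and the rest of the set differed sharply between groups. Per kilobase of exon, the mean levels in CiSCs ran in the order Prrx1 (33.8 CPM per kb), Tbx15 (12.02), Shox2 (8.20), Tbx18 (4.46) and Prrx2 (3.91), with Msx1, Tbx5, Pitx1, Msx2 and Tbx4 all at 0.501 CPM per kb or below. Tbx18 and Prrx2 did not differ beyond their spread in that order, at SDs of 0.437 and 0.345 CPM per kb. In MSCs the order was Prrx1 (45.6 CPM per kb), Prrx2 (5.77), Tbx18 (0.883), Msx2 (0.878) and Msx1 (0.403), where Tbx18 and Msx2 were not separable (SD 0.0358 and 0.390). In MEFs it was Prrx1 (52.3 CPM per kb), Tbx15 (28.6), Prrx2 (14.5), Shox2 (11.2) and Tbx18 (2.10).

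**Figure D1:**
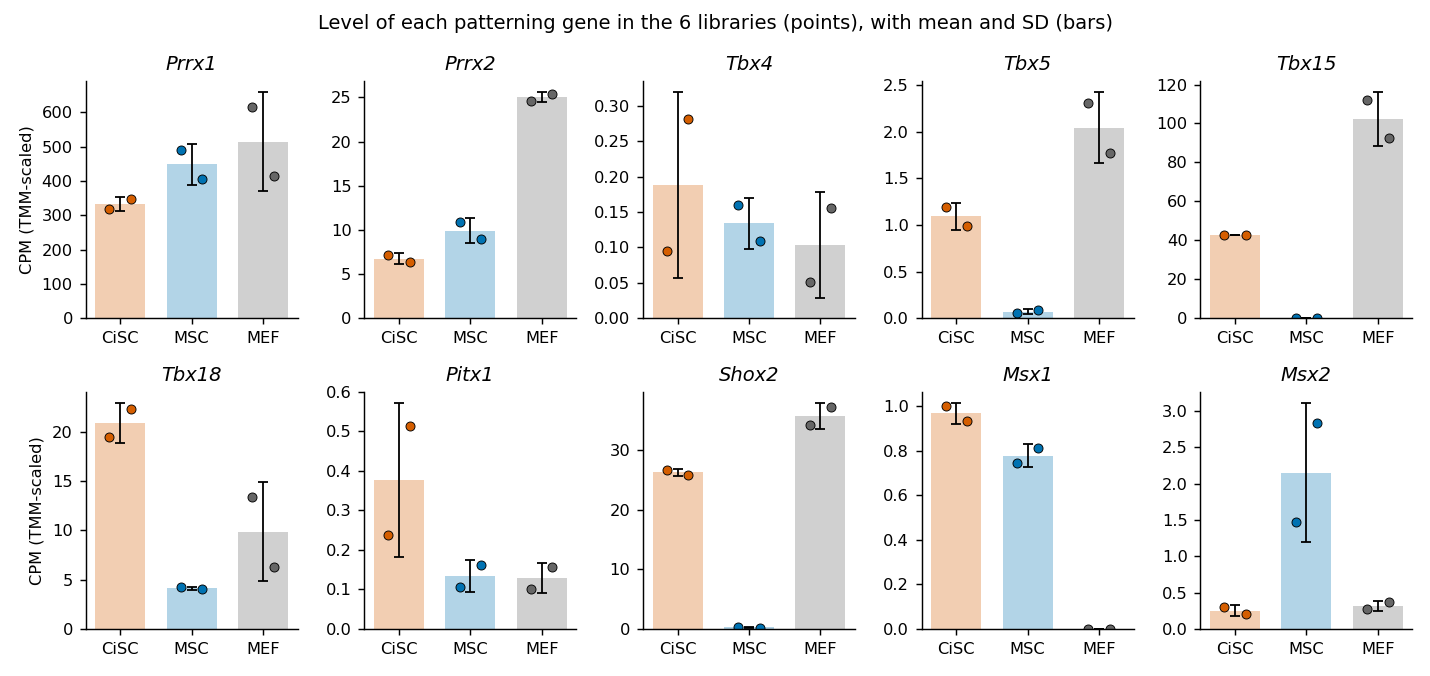
Scaled level (CPM, linear axis from 0, with its own range for each gene) of the 10 genes in the 2 libraries of CiSCs, MSCs and MEFs. Points are libraries, bars are group means and whiskers are SDs. Tbx15 and Shox2 stand near 0 in MSCs and Msx1 stands at 0 in MEFs.

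As a share of the summed counts per kilobase of the 10 genes, Prrx1 made up 52.0% and 54.4% in the CiSC libraries, 85.5% and 84.0% in the MSC libraries, and 51.1% and 43.6% in the MEF libraries. Tbx15 made up 19.4% and 18.5% in CiSCs, 0.130% and 0.124% in MSCs, and 25.6% and 26.9% in MEFs. The Shox2 share was 13.4% and 12.4% in CiSCs, 0.142% and 0.138% in MSCs, and 8.70% and 12.1% in MEFs. The make-up of the set in CiSCs thus held Tbx15 and Shox2 at shares that did not overlap with those of MSCs, and in MSCs Prrx1 and Prrx2 together made up nearly all of it.

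**Figure D2:**
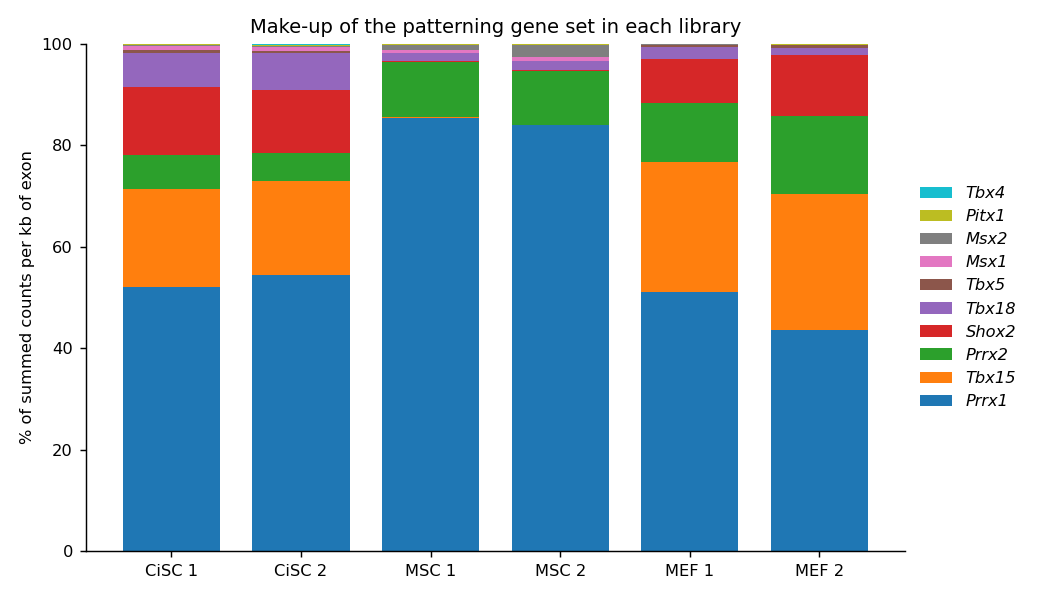
Share (%) of the summed counts per kilobase of exon held by each of the 10 genes in each library. In both MSC libraries Prrx1 holds over 80% and the bands of Tbx15 and Shox2 are too thin to see, while both bands are wide in the CiSC and MEF libraries.

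CiSCs were compared with MEFs to describe the induced cells against the fibroblasts they were made from. Prrx2, Tbx15 and Shox2 were lower in CiSCs, Tbx18 and Msx1 were higher, and Prrx1, Tbx5 and Msx2 did not pass the test. Tbx4 and Pitx1 had too few reads to be tested. This made 2 members called higher and 3 lower of 8 tested, where 40.9% of the 15272 tested genes were called (19.6% higher and 21.3% lower), so the count is near the background. Calls rest on edgeR's quasi-likelihood test, with p adjusted by the Benjamini-Hochberg method across every tested gene and a threshold of 0.05. The count was 3 without either CiSC library and without either MSC library. The median log2 fold change of the 8 was -0.54, against -0.00 for all tested genes.

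MSCs were compared with MEFs to describe the target cell type against the starting one. Tbx15 and Shox2, at 9 reads each over both MSC libraries, were lower in MSCs, as were Prrx2, Tbx5 and Tbx18. Msx1 and Msx2 were higher, and Prrx1 did not pass. That made 2 members higher and 5 lower of 8 tested, where 42.5% of all tested genes were called (22.5% higher and 20.0% lower). The median log2 fold change of the 8 was -1.29, against 0.01 for all tested genes.

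CiSCs against MSCs showed how far the induced cells stood from Sertoli cells in these genes. Tbx5, Tbx15, Tbx18 and Shox2 were higher in CiSCs, Prrx2 and Msx2 were lower, and Prrx1 and Msx1 did not pass. That made 4 members higher and 2 lower of 8 tested, where 42.8% of all tested genes were called (17.7% higher and 25.1% lower). The median log2 fold change of the 8 was 1.32, against -0.03 for all tested genes. Scaling by library totals alone shifted the median of all tested genes by 0.12 in CiSCs against MEFs, -0.11 for MSCs relative to MEFs and 0.24 for CiSCs relative to MSCs. Under it 4241 of all genes were higher in CiSCs than in MSCs and 3211 lower, whereas the trimmed mean of M values gave 2697 higher and 3837 lower. The majority also turned in CiSCs against MEFs (3681 higher and 2781 lower, in place of 2998 and 3252) and in MSCs against MEFs (3058 higher and 3833 lower, in place of 3436 and 3061).

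The 8 tested members entered the test by different routes. Prrx1, Prrx2 and Tbx18 reached the minimum of 0.507 CPM in both libraries of every group. Tbx5, Tbx15 and Shox2 did so in CiSCs and MEFs only, Msx1 in CiSCs and MSCs only, and Msx2 in MSCs only, so that a difference was built into their passing. The counts and medians above are therefore a description of these members. The 3 comparisons also share libraries pairwise and are not independent of each other.

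**Figure D3:**
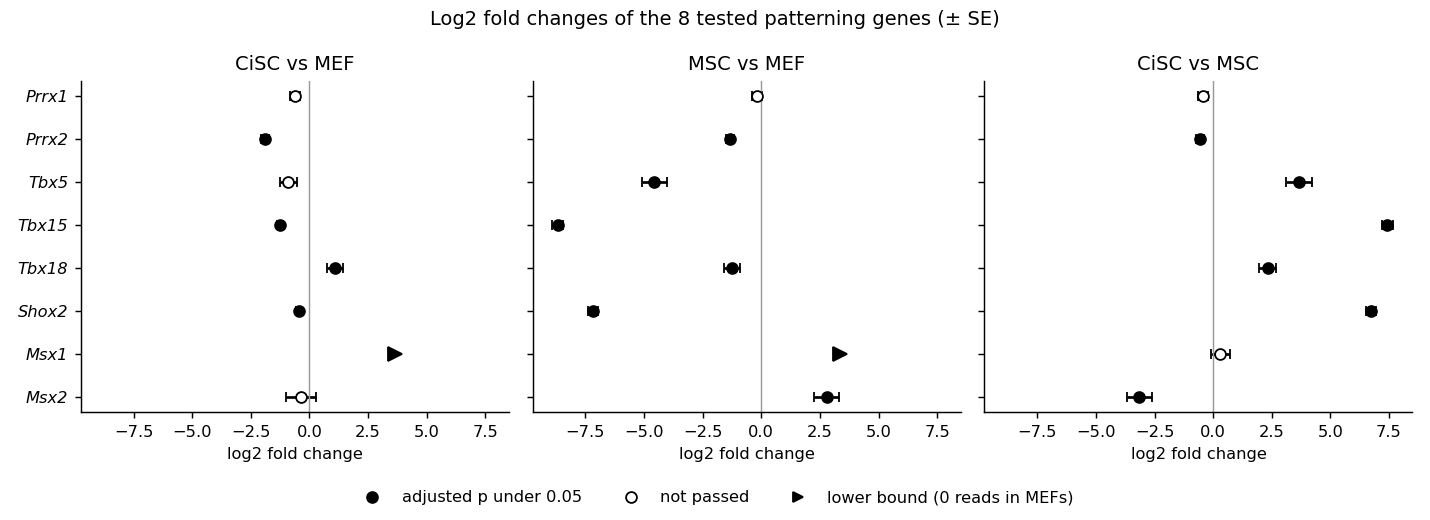
Log2 fold changes (± SE) of the 8 tested genes in each of the 3 comparisons. Filled points passed an adjusted p under 0.05, open points did not, and the triangles for Msx1 are lower bounds because MEFs had 0 reads. Tbx15 and Shox2 lie far to the left in MSCs against MEFs and far to the right in CiSCs against MSCs.

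Prrx1 (Entrez Gene 18933) stood at 318 and 348 CPM in CiSCs, 491 and 406 CPM in MSCs, and 616 and 413 CPM in MEFs. Both CiSC libraries were below all others, while MSCs and MEFs overlapped. None of the 3 differences of Prrx1 passed. The log2 fold change was -0.63 ± 0.22 in CiSCs against MEFs (adjusted p = 0.0591), -0.20 ± 0.22 in MSCs against MEFs (adjusted p = 0.492) and -0.43 ± 0.22 in CiSCs against MSCs (adjusted p = 0.16). These calls changed with the libraries in the fit and with the tool. DESeq2 called Prrx1 lower in CiSCs than in MEFs (-0.63, adjusted p = 0.0174). Without MEF replicate 2 the difference between CiSCs and MEFs was -0.89 (adjusted p = 0.00111, with 0.00111 to 0.477 over 15 alternatives) and that between MSCs and MEFs was -0.46 (adjusted p = 0.0234, with 0.0234 to 1 over 15 alternatives). Without MEF replicate 1 MSCs against MEFs gave 0.09 (adjusted p = 0.606). CiSCs were called lower than MSCs with those groups alone in the fit (adjusted p = 0.0116) and when either MEF library was left out (adjusted p = 0.0134 without replicate 1 and 0.0115 without replicate 2, with 0.0115 to 0.902 over 15 alternatives). MEF replicate 1 had the lower summed leukocyte marker level of the 2, at 11704 CPM, against 18990 CPM in replicate 2. Lyz2 alone gave 7161 and 12498 CPM of these sums. Ptprc (168 against 121 CPM), Adgre1 (329 against 291 CPM) and Mrc1 (319 against 304 CPM) were higher in replicate 1, and the other leukocyte markers were higher in replicate 2. The part of leukocytes in the Prrx1 result was not tested.

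Prrx2 (Entrez Gene 20204), the paralogue of Prrx1, stood at 7.16 and 6.32 CPM in CiSCs, 10.9 and 8.96 CPM in MSCs, and 24.6 and 25.4 CPM in MEFs. The 3 groups did not overlap, and the MEF libraries were clearly above all others. Prrx2 fell 3.71-fold in CiSCs relative to MEFs (log2 fold change -1.89 ± 0.18, adjusted p = 0.000338). It fell 2.52-fold in MSCs relative to MEFs (-1.33 ± 0.17, adjusted p = 0.00133). Both calls held in all 15 alternatives. The smaller difference between CiSCs and MSCs (-0.56 ± 0.18, adjusted p = 0.0421) was lost in 10 of 15 alternatives, with adjusted p from 0.0167 to 0.629, including every setting without a CiSC or MSC library.

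Of the limb identity factors, Tbx5 was measured at a low level and Tbx4 and Pitx1 were close to the detection limit. Tbx5 (Entrez Gene 21388) stood at 1.20 and 0.989 CPM in CiSCs, 0.0537 and 0.0875 CPM in MSCs, and 2.31 and 1.77 CPM in MEFs. MSCs held only 3 reads over both libraries after rounding, CiSCs were intermediate, and the groups did not overlap. With so few reads the ratio is given with its exact 95% counting interval, which was 0.0393 (0.00794 to 0.119) for MSCs against MEFs and 13.5 (4.33 to 67.8) for CiSCs against MSCs. Both differences passed, at adjusted p = 0.000828 and 0.00231. CiSCs against MEFs did not (-0.91 ± 0.36, adjusted p = 0.0916).

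Tbx4 (Entrez Gene 21387), the hindlimb counterpart of Tbx5, had 2 and 6 reads in CiSCs, 3 and 2 in MSCs, and 1 and 3 in MEFs. All 3 groups overlapped, and the counting ratio of CiSCs to MEFs was 1.84 (0.494 to 8.36). Pitx1 (Entrez Gene 18740), which acts upstream of Tbx4 in the hindlimb, had 5 and 11 reads in CiSCs, 2 and 3 in MSCs, and 2 and 3 in MEFs. Both CiSC libraries were above the others, at a counting ratio to MEFs of 2.95 (1.03 to 10.3) and to MSCs of 2.81 (0.985 to 9.82). Neither gene was tested, and at this depth the counts are compatible with any ratio within these wide intervals. Pitx1 also shares 165 exon bases with the antisense gene Gm47071 and 108 with Gm28760 in GENCODE M21. In these libraries the forelimb factor was therefore measurable in CiSCs and MEFs, and neither hindlimb factor reached the minimum in both libraries of any group.

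Tbx15 (Entrez Gene 21384), a T-box gene of skeletal and dermal mesenchyme, stood at 42.9 and 42.8 CPM in CiSCs, 0.272 and 0.218 CPM in MSCs, and 112 and 92.4 CPM in MEFs. The groups were fully apart, with MSCs at 4 to 5 reads a library. In MSCs Tbx15 fell 412-fold relative to MEFs (-8.69 ± 0.24, adjusted p = 1.03e-05). CiSCs had a level 173-fold above that of MSCs (7.43 ± 0.24, adjusted p = 8.92e-06), although it was 2.38-fold lower than in MEFs (-1.25 ± 0.15, adjusted p = 0.000919). With 9 reads over both MSC libraries, the ratio of counts and its exact 95% counting interval were 0.00236 (0.00108 to 0.00449) for MSCs over MEFs and 177 (93.1 to 388) for CiSCs over MSCs. All 3 calls held in all 15 alternatives.

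Shox2 (Entrez Gene 20429), whose start region is printed above, followed nearly the same order. Its level was 26.7 and 25.9 CPM in CiSCs, 0.266 and 0.217 CPM in MSCs, and 34.2 and 37.3 CPM in MEFs. MSCs stood near 0 and CiSCs just under MEFs, with no overlap. It fell 144-fold in MSCs relative to MEFs (-7.17 ± 0.22, adjusted p = 1.03e-05) and was 106-fold higher in CiSCs than in MSCs (6.73 ± 0.22, adjusted p = 8.92e-06), both in all 15 alternatives. With 9 reads in MSCs, the ratio of counts and its counting interval were 0.00676 (0.00309 to 0.0129) for MSCs over MEFs and 109 (57.1 to 238) for CiSCs over MSCs. The difference between CiSCs and MEFs (-0.44 ± 0.13, adjusted p = 0.0385) was lost in 10 of 15 alternatives, with adjusted p from 0.00625 to 1, among them every setting without a CiSC or MSC library and scaling by library totals alone (-0.32, adjusted p = 0.0963). Shox2 shares 153 exon bases with Rsrc1 on the opposite strand, and reads there cannot be told apart without the strand of the counting, which is not given in the sources used here.

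Tbx18 (Entrez Gene 76365), a T-box gene of somite, ureter and heart mesenchyme, stood at 19.4 and 22.3 CPM in CiSCs, 4.25 and 4.01 CPM in MSCs, and 13.4 and 6.29 CPM in MEFs. CiSCs were above and MSCs below both MEF libraries, which were themselves far apart. Tbx18 was 5.04-fold higher in CiSCs than in MSCs (2.33 ± 0.36, adjusted p = 0.00257), and this held in all 15 alternatives. It was called 2.12-fold higher in CiSCs than in MEFs (1.08 ± 0.34, adjusted p = 0.0433) and 2.38-fold lower in MSCs than in MEFs (-1.25 ± 0.36, adjusted p = 0.0316). Those calls were lost in 8 and in 7 of 15 alternatives, with adjusted p from 0.000178 to 0.194 and from 0.000137 to 0.156, and leaving out any CiSC or MSC library ended each of them. Without MEF replicate 1 the values were 1.70 for CiSCs and -0.64 for MSCs, and without MEF replicate 2 they were 0.64 and -1.70. Tbx18 shares 970 exon bases with D030062O11Rik on the opposite strand.

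Msx1 (Entrez Gene 17701) stood at 1.00 and 0.936 CPM in CiSCs, 0.744 and 0.815 CPM in MSCs, and 0 CPM in both MEF libraries. It was present in all 4 CiSC and MSC libraries at 14 to 21 reads and without a read in MEFs, a count that still allows 3 reads in the group (0.0769 CPM). Against that limit Msx1 was at least 12.6-fold higher in CiSCs than in MEFs (adjusted p = 0.00212) and at least 10.1-fold higher in MSCs than in MEFs (adjusted p = 0.00274). CiSCs and MSCs did not differ beyond the test (0.31 ± 0.41, adjusted p = 0.587). Such limits cover counting error only, since reads carried no molecular identifiers.

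Msx2 (Entrez Gene 17702) had another order. Its level was 0.303 and 0.202 CPM in CiSCs, 1.48 and 2.83 CPM in MSCs, and 0.272 and 0.365 CPM in MEFs. Both MSC libraries were above all others, and CiSCs overlapped with MEFs at 4 to 7 reads a library. Msx2 was 6.88-fold higher in MSCs than in MEFs (2.78 ± 0.52, adjusted p = 0.00624) and 8.91-fold lower in CiSCs than in MSCs (-3.15 ± 0.53, adjusted p = 0.00381). With 12 reads in MEFs and 10 in CiSCs, the ratio of counts and its counting interval were 6.99 (3.79 to 14.1) for MSCs over MEFs and 0.110 (0.0508 to 0.213) for CiSCs over MSCs. The first call was lost without MSC replicate 2 (2.25, adjusted p = 0.0639, with 0.00552 to 0.0639 over 14 alternatives), and the second held in all 14. CiSCs did not differ from MEFs beyond the test (-0.37 ± 0.64, adjusted p = 0.668).

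The balance within related pairs was given as a log2 ratio of counts in each library, with 0.5 counts added to each gene. With 2 libraries against 2, the exact two-sided permutation test cannot give a p below 0.333, so no such difference can pass 0.05. Prrx1 over Prrx2 was 5.47 and 5.78 in CiSCs, 5.49 and 5.50 in MSCs, and 4.64 and 4.02 in MEFs. CiSCs and MSCs overlapped, and both lay above MEFs, by 1.29 and 1.16 (exact permutation p = 0.333 for each). Tbx15 over Tbx18 was 1.14 and 0.94 in CiSCs, -3.84 and -4.04 in MSCs, and 3.06 and 3.87 in MEFs. The sign of this balance was opposite in MSCs, and CiSCs lay between the other groups, -2.42 relative to MEFs and 4.98 relative to MSCs (exact permutation p = 0.333 for each).

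Msx1 over Msx2 was 1.65 and 2.09 in CiSCs, -0.96 and -1.76 in MSCs, and -3.55 and -3.91 in MEFs. Only CiSCs had more Msx1 than Msx2 reads among the 3 groups, and they lay 3.23 above MSCs (exact permutation p = 0.333). The MEF ratio rests on 0 reads of Msx1 and so on the added counts: with 2 in place of 0.5 counts the difference of CiSCs from MEFs was 3.66 in place of 5.60, and that of MSCs from MEFs 0.745 in place of 2.37. Tbx4 over Tbx5 was -3.35 and -1.73 in CiSCs, 1.21 and 0.24 in MSCs, and -4.94 and -3.30 in MEFs. CiSCs and MEFs overlapped, and the MSC values rest on 1 to 3 reads of each gene.

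**Figure D4:**
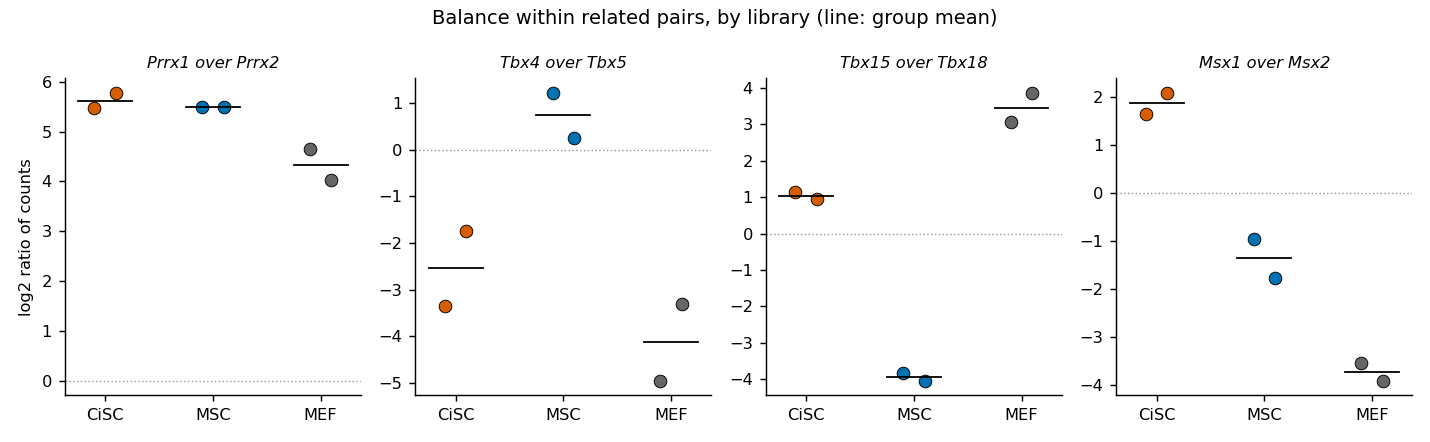
Log2 ratio of counts (vertical axis) within the pairs Prrx1 over Prrx2, Tbx4 over Tbx5, Tbx15 over Tbx18 and Msx1 over Msx2 in each library of CiSCs, MSCs and MEFs. Points are libraries, solid lines are group means and the dotted line marks equal counts. Tbx15 over Tbx18 is above 0 in CiSCs and MEFs and below 0 in MSCs.

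The shape of each pattern over the 6 libraries was set against 12128 tested genes with a symbol and a mean of at least 5 CPM in some group, as the Euclidean distance between log2 CPM profiles centred on their own means. This is a description over 6 libraries of 3 groups. Among the members, Prrx1 lay 1.49 from Prrx2 and Tbx15 lay 1.53 from Shox2, while Tbx15 and Tbx18 were 7.23 apart. The 3 genes nearest to Prrx1 included Lats2 (0.197) and Slc23a2 (0.201). Those nearest to Prrx2 included Car5b (0.261) and Ica1 (0.339). Tbx15 had Cpa6 (1.25), the Iroquois homeobox gene Irx2 (1.47) and Chodl (1.505), and Irx2 was also among those of Shox2 (1.43), with Flrt3 (0.830) and AW551984 (1.19). Tbx18 had Stox2 (0.264), Cep126 (0.271) and Pitpnc1 (0.344). When profiles were also divided by their SD, none of the 3 nearest genes was kept for any of these 5 members, so the neighbours depend on whether the size of a difference counts.

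Genes that work with the members were read from 5 lists, shown in the plot of list genes by comparison. Of the limb bud signalling and patterning partners, 24 of 25 were in the files and 19 were tested. In CiSCs against MEFs 8 rose, 5 fell and 6 did not pass (median 0.11), in MSCs against MEFs 4 rose, 7 fell and 8 did not pass (median -0.31), and in CiSCs against MSCs 9 were higher, 4 lower and 6 did not pass (median 0.61). Of all tested genes 40.9%, 42.5% and 42.8% were called in the same comparisons, and the calls of each list are to be read beside these shares. Meis2, a homeobox cofactor of the proximal limb, averaged 235 ± 17.6 CPM in CiSCs, 17.7 ± 0.631 CPM in MSCs and 21.97 ± 0.731 CPM in MEFs. CiSCs stood far above the others, 10.7-fold above MEFs (adjusted p = 1.71e-05), while MSCs and MEFs did not differ beyond the test (adjusted p = 0.0986). Grem1, a secreted BMP antagonist of the limb bud, averaged 2.48 ± 0.000901 CPM in CiSCs, 1.48 ± 0.213 CPM in MSCs and 137 ± 46.8 CPM in MEFs. It fell 55.2-fold in CiSCs and 92.5-fold in MSCs relative to MEFs (adjusted p = 3.5e-05 and 3.03e-05).

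Others of the list differed group by group. Irx3, an Iroquois homeobox gene of the proximal limb, was 5.32-fold higher in CiSCs than in MEFs (58.2 ± 5.47 against 10.95 ± 1.30 CPM, adjusted p = 9.11e-05), and 82.5-fold higher than in MSCs (0.699 ± 0.0866 CPM, adjusted p = 1.01e-05). Wnt2b, a secreted Wnt ligand, averaged 25.9 ± 4.39 CPM in CiSCs, 5.99 ± 1.62 CPM in MSCs and 1.29 ± 0.363 CPM in MEFs, and both CiSCs and MSCs were above MEFs (adjusted p = 0.000137 and 0.00222). En1, the homeobox gene of ventral limb ectoderm, averaged 27.8 ± 6.00 CPM in CiSCs, 7.20 ± 0.110 CPM in MSCs and 42.6 ± 9.34 CPM in MEFs. It fell in MSCs relative to MEFs (-2.56 ± 0.23, adjusted p = 0.000296), and CiSCs did not pass (adjusted p = 0.0608). Zbtb16, a zinc finger repressor of limb patterning that is also a germline stem cell marker, was 6.45-fold higher in MSCs than in MEFs (22.2 ± 4.21 against 3.44 ± 0.154 CPM, adjusted p = 0.0002). The 6 germ cell markers in the files summed to 2.11 to 2.56 CPM in CiSCs, 25.9 to 32.8 CPM in MSCs and 3.86 to 3.97 CPM in MEFs, of which Zbtb16 itself made up 25.2 and 19.2 CPM in the MSC libraries. Of the others, Ddx4 averaged 0.0472 CPM in CiSCs, 4.77 CPM in MSCs and 0.333 CPM in MEFs, and Dazl averaged 0.119 CPM in CiSCs, 1.70 CPM in MSCs and 0.0506 CPM in MEFs. Tnp1 was at 0 in all groups, and Prm1 was at 0 in CiSCs and MEFs. The part of germ cells in the Zbtb16 result was not tested.

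**Figure D5:**
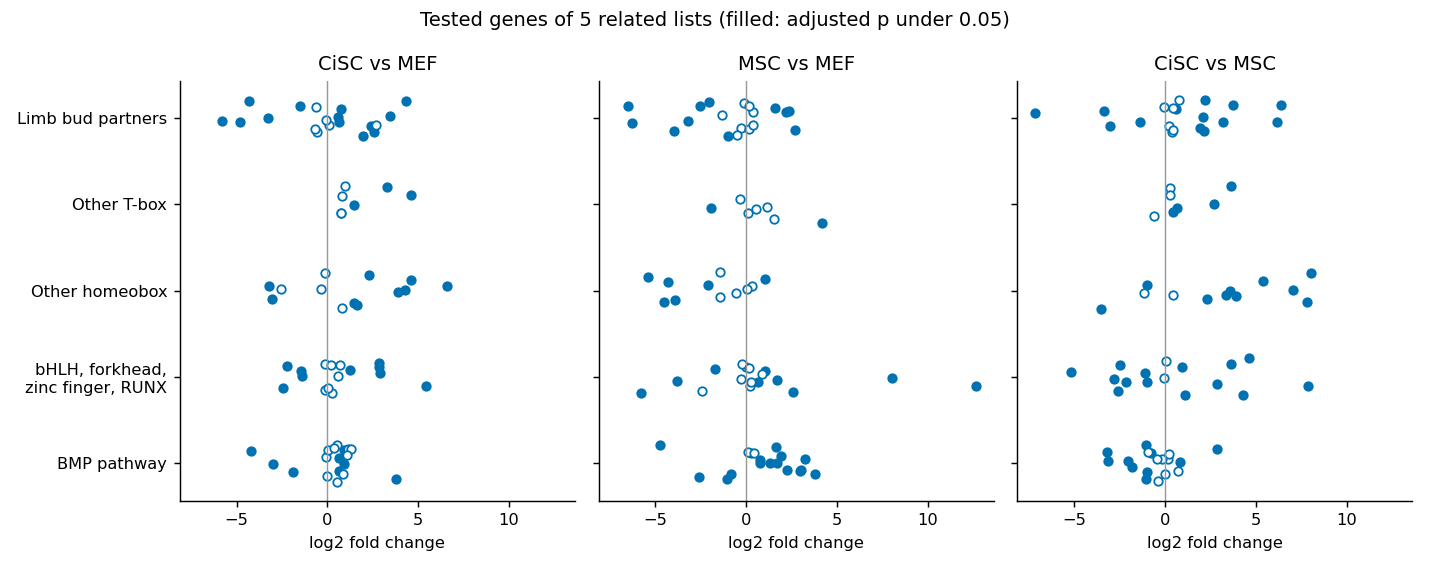
Log2 fold changes of the tested genes of the 5 lists in each of the 3 comparisons. Each point is a gene, filled where the adjusted p is under 0.05, and genes without a read in a group are not drawn. Points of the homeobox list lie mostly to the right in CiSCs against MSCs and mostly to the left in MSCs against MEFs. In the first 10 of 14 were called higher, where 17.7% of all tested genes were. In the second 6 of 14 were called lower, where 20.0% of all tested genes were. Of the 14, 12 and 11 are drawn in these comparisons.

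Of the other T-box genes, 12 of 13 were in the files and 7 were tested. In CiSCs against MEFs 4 rose and 3 did not pass (median 0.96), in MSCs against MEFs 1 rose, 1 fell and 5 did not pass (median 0.53), and in CiSCs against MSCs 4 were higher and 3 did not pass (median 0.44). Tbx2, a T-box repressor of limb and organ outgrowth, averaged 37.8 ± 1.92 CPM in CiSCs, 27.9 ± 0.0698 CPM in MSCs and 1.54 ± 0.0428 CPM in MEFs. CiSCs and MSCs were both far above MEFs, by 24.5-fold and 18.05-fold (adjusted p = 1.49e-05 and 1.47e-05). Its relative Tbx3 averaged 22.9 ± 1.35 CPM in CiSCs, 14.2 ± 0.467 CPM in MSCs and 13.5 ± 0.442 CPM in MEFs, and was higher in CiSCs by 1.69-fold relative to MEFs (adjusted p = 0.0066) and 1.61-fold relative to MSCs (adjusted p = 0.00887).

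The other non-HOX homeobox genes of mesenchyme and skeleton were all 22 in the files, and 14 were tested. In CiSCs against MEFs 8 rose, 2 fell and 4 did not pass (median 1.55). In MSCs against MEFs 1 rose, 6 fell and 7 did not pass (median -1.78, or -1.44 with genes without reads in a group set at their bound). In CiSCs against MSCs 10 were higher, 2 lower and 2 did not pass (median 3.74, or 3.67 at the bound). Six2, a gene of nephron progenitors and craniofacial mesenchyme, averaged 22.7 ± 0.478 CPM in CiSCs, with 3 reads over both MSC libraries and 0.248 ± 0.0387 CPM in MEFs. Six2 thus stood 95.6-fold higher in CiSCs than in MEFs (adjusted p = 1.83e-05), and its counting ratio to MSCs was 281 (95.9 to 1365).

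Pax9, a paired box gene of sclerotome and limb, averaged 19.5 ± 0.372 CPM in CiSCs, with 3 reads in MSCs and 1.32 ± 0.203 CPM in MEFs, and was 14.8-fold higher in CiSCs than in MEFs (adjusted p = 5.52e-05). Meox1, a somite homeobox gene, averaged 64.1 ± 9.20 CPM in CiSCs, 0.483 ± 0.0686 CPM in MSCs and 20.4 ± 9.10 CPM in MEFs. Its order resembled that of Tbx18 in that CiSCs were highest and MSCs lowest, and all 3 differences passed (adjusted p = 0.00604 for CiSCs against MEFs, 0.000199 for MSCs against MEFs and 5.9e-05 for CiSCs against MSCs). Alx4, a homeobox gene of anterior limb and skull, went the other way, at 2.25 ± 0.455 CPM in CiSCs, 4.38 ± 0.170 CPM in MSCs and 18.9 ± 0.315 CPM in MEFs, so that CiSCs were 8.41-fold below MEFs (adjusted p = 0.000107).

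All 18 mesenchymal bHLH, forkhead, zinc finger and RUNX regulators were in the files and 17 were tested. In CiSCs against MEFs 5 rose, 4 fell and 8 did not pass (median 0.21), in MSCs against MEFs 6 rose, 3 fell and 8 did not pass (median 0.21), and in CiSCs against MSCs 7 were higher, 8 lower and 2 did not pass (median -0.04). Twist2, a bHLH factor of dermal mesenchyme, had the order of Tbx15 and Shox2, with 77.4 ± 3.58 CPM in CiSCs, 3.87 ± 0.135 CPM in MSCs and 212 ± 18.7 CPM in MEFs. It was 2.74-fold lower in CiSCs than in MEFs (adjusted p = 0.000287) and 54.6-fold lower in MSCs than in MEFs (adjusted p = 1.03e-05). The forkhead genes Foxc1 and Foxc2, of somite and head mesenchyme, were highest in CiSCs. Foxc1 averaged 46.6 ± 5.95 CPM in CiSCs, 6.51 ± 0.859 CPM in MSCs and 6.56 ± 1.38 CPM in MEFs, and Foxc2 averaged 35.2 ± 1.33 CPM in CiSCs, 1.43 ± 0.288 CPM in MSCs and 4.70 ± 0.111 CPM in MEFs, with adjusted p = 0.000147 and 6.72e-05 for CiSCs against MEFs.

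In the same list, Tcf21 and Osr2 were highest in MSCs. The summed Sertoli, Leydig, peritubular myoid and endothelial marker levels given above were also highest in MSCs, and the part of each cell type was not tested. Tcf21, a bHLH factor of visceral and gonadal mesenchyme, had 0 reads in CiSCs, averaged 203 ± 30.5 CPM in MSCs and had 1 read over both MEF libraries. Its counting ratio of MSCs to MEFs was 7910 (1419 to 312485), and CiSCs were at least 2862-fold lower than MSCs (adjusted p = 1.89e-05). Osr2, an odd-skipped zinc finger gene of joint and kidney mesenchyme, averaged 2.63 ± 0.604 CPM in CiSCs, 94.1 ± 7.47 CPM in MSCs and 0.358 ± 0.0656 CPM in MEFs. CiSCs were 7.20-fold above MEFs (adjusted p = 0.000551) and 35.8-fold below MSCs (adjusted p = 1.35e-05). Runx1, a factor of blood and connective tissue, averaged 18.8 ± 2.03 CPM in CiSCs, 83.1 ± 2.92 CPM in MSCs and 102 ± 16.5 CPM in MEFs, and fell in CiSCs relative to MEFs (-2.43 ± 0.17, adjusted p = 0.000109). MSCs did not differ from MEFs in Runx1 beyond the test (-0.29, adjusted p = 0.186). The summed leukocyte marker levels had the same order of groups as Runx1. They were 1310 to 1391 CPM in MSCs and 11704 to 18990 CPM in MEFs, and their part in the Runx1 result was not tested.

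The Msx genes are read out with BMP signalling, and all 18 listed BMP pathway genes were tested. In CiSCs against MEFs 5 rose, 3 fell and 10 did not pass (median 0.57), in MSCs against MEFs 11 rose, 4 fell and 3 did not pass (median 1.04), and in CiSCs against MSCs 2 were higher, 8 lower and 8 did not pass (median -0.60). The 8 calls of 18 in CiSCs against MEFs are near the 40.9% of all tested genes called there. The ligand Bmp4 averaged 14.5 ± 0.261 CPM in CiSCs, 60.2 ± 5.42 CPM in MSCs and 7.67 ± 2.22 CPM in MEFs. It was higher than in MEFs in both CiSCs (0.92 ± 0.21, adjusted p = 0.0153) and MSCs (2.97 ± 0.22, adjusted p = 0.000132). The receptor Bmpr1b averaged 3.403 ± 0.247 CPM in CiSCs, 0.456 ± 0.107 CPM in MSCs and 12.6 ± 8.13 CPM in MEFs, and fell in both (adjusted p = 0.0185 in CiSCs and 0.00107 in MSCs). The MEF libraries, at 18.4 and 6.86 CPM, were far apart for this gene.

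Among the BMP feedback and target genes, the inhibitor Smad6 averaged 6.54 ± 0.144 CPM in CiSCs, 60.3 ± 4.77 CPM in MSCs and 6.37 ± 0.840 CPM in MEFs. Only the MSCs stood apart, 9.47-fold above MEFs (adjusted p = 3.23e-05), as they did for Msx2. The related inhibitor Smad7 averaged 36.4 ± 0.833 CPM in CiSCs, 73.1 ± 3.37 CPM in MSCs and 23.7 ± 3.89 CPM in MEFs (adjusted p = 0.0206 for CiSCs and 0.000388 for MSCs against MEFs). Id1, a target of BMP receptors that blocks bHLH factors, averaged 50.8 ± 4.51 CPM in CiSCs, 106 ± 2.80 CPM in MSCs and 32.1 ± 8.38 CPM in MEFs (adjusted p = 0.0376 and 0.000879 in the same comparisons). Id2 ran the other way, at 10.6 ± 0.421 CPM in CiSCs, 94.0 ± 13.1 CPM in MSCs and 196 ± 63.1 CPM in MEFs, and was 18.4-fold lower in CiSCs than in MEFs (adjusted p = 7.4e-05).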

How the data were processed

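Total RNA of 6 mouse libraries, 2 each of CiSCs, MSCs and MEFs, had been sequenced on the BGISEQ-500 platform. The authors deposited expected counts per Entrez Gene identifier, of which 42.0% to 43.8% per library were not whole numbers (tolerance 1e-09). Per the submitters' processing notes alignment used HISAT and build mm9, and the counting program, annotation, strand and filters are not given in the sources used here. Library totals differed, as counts do, and whether the authors normalised the values was not tested further.

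After rounding, counts were fitted with edgeR 4.0.16 under R 4.3.3. The default filter on low counts left 15272 of 20007 identifiers, libraries were scaled by the trimmed mean of M values, and a model of group means over the 6 libraries left 3 residual degrees of freedom. Two-sided quasi-likelihood F tests were adjusted by the Benjamini-Hochberg method over all tested genes, with calls at an adjusted p under 0.05. A standard error is the log2 fold change divided by the root of F. Levels are CPM on scaled library sizes, as mean ± SD over 2 libraries. Log2 CPM used a prior count of 2. A fold against 0 reads is a bound against 3 reads over the group, and ratios with few reads have exact 95% binomial intervals. Exon lengths are unions of GENCODE M21 exons. Symbols were matched through a RefSeq table for 18891 identifiers. The steps were tested on simulated data.

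The members and the 5 pathway and 8 marker lists were chosen with earlier results of these data known. Named from each pathway list were up to 4 genes with the smallest adjusted p in CiSCs against MEFs and up to 2 others in MSCs against MEFs, among called genes with groups apart and at least 5 CPM in the higher group. For each member with at least 5 CPM in some group the 3 nearest genes were taken. Some genes that these rules chose are not reported here. Alternatives were leaving out each library, a replicate block, a fit of the 2 compared groups alone, no filter, at least 5 CPM in 2 libraries, median-ratio size factors, library totals, DESeq2 1.42.0, a test against a fold of 1.5, a threshold of 0.01, 2 counts added in ratios, and SD-scaled profiles. Shh, Tbx22 and 3 marker genes were not analysed here.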

Additional observations from a re-analysis of the deposited data

How the results depend on the processing

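Of 350 recomputed member fold changes, 307 kept their direction and side of the threshold, 36 lost the call, 6 gained it and 1 reversed, which was Prrx1 in MSCs against MEFs, at -0.46 without MEF replicate 2 and 0.086 without MEF replicate 1. Members called in CiSCs against MEFs numbered 3 with only the 2 groups in the fit, at an adjusted p under 0.01 and against a fold of 1.5, and 3 to 6 when a library was left out, against 5 reported. Members called in MSCs against MEFs numbered 4 at a minimum of 5 CPM, against 7, since 5 CPM leaves fewer members to test. All genes called numbered 3774, 4009 and 4324 at an adjusted p under 0.01 and 3664, 3979 and 4282 against a fold of 1.5, for CiSCs over MEFs, MSCs over MEFs and CiSCs over MSCs in that order, against 6250, 6497 and 6534. Leaving out a library gave 3395 to 9487, 3516 to 9745 and 3910 to 9369 in the same order. List genes called went to 28 to 51 in CiSCs against MEFs, the lowest without CiSC replicate 2, and to 35 to 59 in CiSCs against MSCs, the lowest without MSC replicate 2, against 44 and 54. With 2 counts added, the ratio differences were 4.63 for Tbx15 over Tbx18 in CiSCs against MSCs, and 3.66 and 0.745 for Msx1 over Msx2 in CiSCs and MSCs against MEFs. Where a left-out library leaves 1 in its group, that library is assumed to vary like the other groups. The cause was not tested where none is given.

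Deviations of same-numbered libraries were weakly correlated (-0.13 for CiSCs with MSCs, -0.21 for CiSCs with MEFs and 0.14 for MSCs with MEFs). With only 2 libraries in a group, this cannot decide whether the numbers pair them. With the replicate number as a block, members called were 4, 7 and 5 in the same order of comparisons, all genes 5468, 5672 and 5814, and list genes 42, 43 and 48. Depth limits Tbx4 and Pitx1, the MSC values of Tbx5, Tbx15 and Shox2, and the CiSC and MEF values of Msx2, which rest on 16 reads or fewer a group. It also limits the MEF value of Msx1, which had 0 reads in both libraries.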
